A study of Homo sapiens with 9 samples.

Results

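Target genes of the transcription factor p53 were followed across 9 Affymetrix expression arrays of HT1080, a cell line grown from a human fibrosarcoma. The genes are CDKN1A, MDM2, GDF15, TP53I3, RRM2B, FDXR, FAS, ZMAT3 and XPC, and their members are the probe sets that the platform's annotation assigns to 1 of these symbols and that carry values in the deposited table. Of 27 probe sets so annotated, 14 had values, out of 17474 with values in the whole series. They read 8 of the 9 genes, with 5 of 10 probe sets for MDM2, 3 of 5 for FAS, 1 of 5 for ZMAT3, 1 of 3 for GDF15 and 1 of 1 for CDKN1A, TP53I3, RRM2B and XPC. FDXR had 0 annotated probe sets and is not described further.

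The study holds 3 conditions with 3 arrays each. The inhibitor-treated cells were MTAP-positive HT1080 cells kept for 48 hours in 10 µM MT-DADMe-ImmA, the MTAP-positive cells were untreated cells with methylthioadenosine phosphorylase, and the MTAP-negative cells were untreated cells without it. The enzyme breaks down methylthioadenosine, which polyamine synthesis leaves behind, and MT-DADMe-ImmA blocks it. No inhibitor-treated MTAP-negative cells were among the samples, so the effect of the compound apart from MTAP cannot be told apart here. The sources used here do not give the origin of the MTAP-positive cells or whether they are 1 clone. The design text calls the arrays of a group biological replicates, and p-values measure only the spread between them.

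p53 is held at a low level in unstressed cells because MDM2, itself a p53 target, marks the p53 protein for degradation. DNA damage, nucleotide shortage and other stresses release p53, which then raises genes that stop the cell cycle, repair DNA, supply nucleotides or favour cell death. CDKN1A encodes the inhibitor p21, through which many cell cycle genes are lowered by the DREAM repressor complex. The p53 protein and its activity were not measured, and several of these genes also answer to other regulators.

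The labels held for MTAP itself. One of its 2 probe sets lay between 11.29 and 11.55 (log2) on the inhibitor-treated arrays, between 11.56 and 11.71 on the MTAP-positive arrays and between 3.86 and 4.07 on the MTAP-negative arrays. All 6 mesenchymal markers had values, VIM at 13.82 to 14.07, and 0 of 22 markers of epithelial, blood, endothelial, melanocyte or neural, and liver cells did. The 5 prime minus 3 prime difference of the ACTB control probe sets, a sign of RNA length, averaged -1.63 on the inhibitor-treated, -1.43 on the MTAP-positive and -2.50 on the MTAP-negative arrays, with -3.52 on MTAP-negative array 3 (log2). These are bulk samples, in which fewer expressing cells and less RNA per cell cannot be told apart.

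The promoters of 3 genes were chosen to show the p53 response element, a site of 20 bases. MDM2 and FAS had probe sets called lower, and GDF15 was the only member called higher. The windows are RefSeq promoters on GRCh38.p14, from 250 bases before to 50 after an annotated start, of which a gene can have several, with both strands searched for the consensus element by the number of mismatches. Capitals mark the closest match. MDM2 (chr12:68808767-68809066, plus strand) and FAS (chr10:88991181-88991480, plus strand) each held a match with 2 mismatches, at -94 to -75 and at -122 to -103 from the annotated start. These windows were chosen as the closest matches among 4 of MDM2 and 3 of FAS, and lie at starts inside the genes' annotated spans. Another MDM2 window holds the same site, and the closest match had 5 mismatches in the other 2 windows of each gene. GDF15 (chr19:18385908-18386207, plus strand) held one with 3 mismatches, at 28 to 47.
MDM2: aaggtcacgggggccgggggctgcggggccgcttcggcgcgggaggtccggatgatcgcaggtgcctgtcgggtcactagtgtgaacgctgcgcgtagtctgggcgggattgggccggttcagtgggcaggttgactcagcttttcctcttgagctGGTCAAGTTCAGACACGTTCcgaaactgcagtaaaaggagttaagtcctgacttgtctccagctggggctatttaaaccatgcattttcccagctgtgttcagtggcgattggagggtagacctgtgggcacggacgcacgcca
FAS: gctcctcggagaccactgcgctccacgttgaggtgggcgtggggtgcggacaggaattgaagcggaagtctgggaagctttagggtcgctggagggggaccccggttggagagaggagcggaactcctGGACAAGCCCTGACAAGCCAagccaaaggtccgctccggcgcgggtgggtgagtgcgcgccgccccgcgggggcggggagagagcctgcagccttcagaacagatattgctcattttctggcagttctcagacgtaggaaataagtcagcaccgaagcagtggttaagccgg
GDF15: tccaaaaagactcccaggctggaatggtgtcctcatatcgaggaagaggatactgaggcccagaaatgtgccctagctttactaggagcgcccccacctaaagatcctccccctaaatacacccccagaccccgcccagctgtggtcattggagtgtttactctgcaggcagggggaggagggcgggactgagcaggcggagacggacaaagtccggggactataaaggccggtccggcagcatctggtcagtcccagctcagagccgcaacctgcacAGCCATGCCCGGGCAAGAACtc
A match with at most 2 mismatches was found in 0.649% of 35116 windows, and one with at most 3 mismatches in 5.2%. These shares are per window, and the best of several windows has more chances to match. The closest match had 3 mismatches in the XPC window, 4 in the better of the ZMAT3 windows, and 5 in those of CDKN1A and TP53I3, a number that 70.5% of all windows reach. A match is a description of the letters and not a binding site, and no match in these windows says nothing about sites elsewhere in the gene.

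Calls among the members were mostly downward in the 2 comparisons with MTAP-negative cells, and few and mixed in the third. In inhibitor-treated against MTAP-positive cells, 2 probe sets fell (TP53I3 and an MDM2 probe set) and 1 rose (GDF15), with limma's adjusted p below 0.05. At an unadjusted p below 0.05 in limma, 4 were lower and 2 higher. Of all 17466 probe sets tested, 10.3% were called in that comparison, 4.86% higher and 5.48% lower. In MTAP-positive against MTAP-negative cells, 4 of the 14 fell, 2 of MDM2 and 1 each of FAS and RRM2B, and 0 rose (5 lower and 0 higher at an unadjusted p below 0.05 in limma), against 14.8% of all probe sets called, 10.0% higher and 4.78% lower. In inhibitor-treated against MTAP-negative cells, 10 fell and 1 rose, in 7 of the 8 genes, against 30.7% of all probe sets called, 17.4% higher and 13.3% lower. Of the probe sets called there 56.5% were higher, against 46.9% after centring the arrays and 46.6% after quantile normalization. The median log2 change of the members was -0.22, -0.15 and -0.45 in these comparisons in turn, beside -0.02, 0.04 and 0.03 over all probe sets. Arrays of the groups did not overlap for 6 lower members and 1 higher member in inhibitor-treated against MTAP-positive cells, beside 18.1% and 15.2% of all probe sets. The same counts were 7 and 0 in MTAP-positive against MTAP-negative cells, beside 13.5% and 20.1%, and 10 and 2 in inhibitor-treated against MTAP-negative cells, beside 23.1% and 27.5%. Probe sets assigned to 1 gene are meant to read transcripts of that gene, and the comparisons share arrays, so neither members nor comparisons are independent. The count of 4 for MTAP-positive against MTAP-negative cells was 2 without any 1 of MTAP-negative arrays 1, 2 or 3, MTAP-positive arrays 1 or 3, or inhibitor-treated array 3. The count of 11 became 7 without MTAP-negative array 1 or inhibitor-treated array 2.

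MDM2, the ubiquitin ligase that degrades p53, had the most member calls, but it also has 5 of the 14 member probe sets. Its probe sets are told apart here by their mean log2 value over the 9 arrays. The one of mean 7.47 measured 6.46, 6.84 and 6.57 (log2) on the inhibitor-treated arrays, 7.46, 7.51 and 7.52 on the MTAP-positive arrays, and 8.28, 8.36 and 8.24 on the MTAP-negative arrays. No group overlapped another. It fell by 0.80 ± 0.11 (log2, SE) in MTAP-positive against MTAP-negative cells, 1.74-fold lower (adjusted p = 0.00226), and this call held in every alternative run. The inhibitor-treated mean of 6.62 lay under 6.64, the level that every probe set with values reached on at least 3 arrays. That level describes which probe sets were kept, and lower values were not cut off. As measured, inhibitor-treated cells were 1.83-fold lower than MTAP-positive cells (adjusted p = 0.00315) and 3.18-fold lower than MTAP-negative cells (adjusted p = 3.67e-05). Counted from that level as a cautious bound, they were at least 1.81-fold and at least 3.15-fold lower.

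The MDM2 probe set of mean 8.03 had the same order of groups and measured 7.66, 7.67 and 7.66 in inhibitor-treated cells, 7.85, 8.0 and 7.99 in MTAP-positive cells, and 8.39, 8.57 and 8.5 in MTAP-negative cells. Again no group overlapped another. It fell by 0.54 ± 0.09 in MTAP-positive against MTAP-negative cells (adjusted p = 0.00623), a call lost with the ACTB difference as a covariate (adjusted p = 0.0550). In inhibitor-treated cells it fell by 0.83 ± 0.09 against MTAP-negative cells (adjusted p = 0.000359), while the difference from MTAP-positive cells was -0.29 ± 0.09 (adjusted p = 0.0840, and 0.0410 with array weights).

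The brightest MDM2 probe set changed less. That of mean 10.94 measured 10.68, 10.60 and 10.77 in inhibitor-treated cells, 10.96, 11.11 and 10.91 in MTAP-positive cells, and 11.17, 11.34 and 10.93 in MTAP-negative cells. The inhibitor-treated arrays were the lowest 3, and the untreated groups overlapped. It fell by 0.46 ± 0.12 in inhibitor-treated against MTAP-negative cells (adjusted p = 0.0194), a call lost without MTAP-negative array 1 (0.0549) or 2 (0.0604) or inhibitor-treated array 1 (0.0565) or 2 (0.0682). The other comparisons of this probe set gave -0.31 ± 0.12 against MTAP-positive cells (adjusted p = 0.138) and -0.15 ± 0.12 for MTAP-positive against MTAP-negative cells (adjusted p = 0.440).

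The remaining MDM2 probe sets had means of 7.27 and 9.89. The dimmer measured 7.08, 6.91 and 7.15 in inhibitor-treated, 7.24, 7.28 and 7.30 in MTAP-positive, and 7.38, 7.43 and 7.66 in MTAP-negative cells, with no overlap. Only its difference between inhibitor-treated and MTAP-negative cells passed the test, a fall of 0.44 ± 0.11 (adjusted p = 0.0141), lost with the ACTB covariate (0.0724) and without inhibitor-treated array 2 (0.0575). The brighter measured 9.48, 9.91 and 9.54 in inhibitor-treated, 9.90, 10.23 and 9.70 in MTAP-positive, and 10.61, 10.05 and 9.60 in MTAP-negative cells, and overlapped throughout. Its differences did not pass the test, at -0.44 ± 0.24 for inhibitor-treated against MTAP-negative cells (adjusted p = 0.199, and 0.00553 with the ACTB covariate).
As the mean of its 5 probe sets, MDM2 fell by 0.40 ± 0.10 in inhibitor-treated against MTAP-positive cells (adjusted p = 0.0226), by 0.77 ± 0.10 against MTAP-negative cells (adjusted p = 0.000228), and by 0.37 ± 0.10 in MTAP-positive against MTAP-negative cells (adjusted p = 0.0237). All 5 probe sets had a negative change in each comparison, with sizes that differed between probe sets. Which part of the MDM2 transcript each probe set reads was not analysed here.

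MDM4, the relative of MDM2 that binds p53 and holds back its activity, moved the other way. Its probe set of highest mean measured 9.53, 9.96 and 9.57 in inhibitor-treated, 8.97, 9.32 and 9.14 in MTAP-positive, and 8.58, 8.51 and 8.44 in MTAP-negative cells, with no overlap. It rose by 1.18 ± 0.14 in inhibitor-treated against MTAP-negative cells (adjusted p = 0.000424), in every alternative run. The rise of 0.55 ± 0.14 against MTAP-positive cells (adjusted p = 0.0391) passed in 7 of 16 alternatives. The call was lost without MTAP-negative array 1 (0.0594), 2 (0.0552) or 3 (0.0509), MTAP-positive array 1 (0.120) or 3 (0.0739), or inhibitor-treated array 1 (0.0595), 2 (0.112) or 3 (0.0911), and with only those 2 groups fitted (0.0783). The rise of 0.63 ± 0.14 in MTAP-positive against MTAP-negative cells (adjusted p = 0.0174) was lost with the ACTB covariate (0.154) and without MTAP-negative array 2 (0.0516) or 3 (0.0592).
The other MDM4 probe set with values was named after its values were seen. It measured 9.69, 9.54 and 9.64 in inhibitor-treated, 8.82, 8.70 and 9.04 in MTAP-positive, and 8.54, 8.78 and 8.49 in MTAP-negative cells, higher on every inhibitor-treated array. It rose by 0.77 ± 0.12 in inhibitor-treated against MTAP-positive cells (adjusted p = 0.00652), while MTAP-positive minus MTAP-negative cells gave 0.25 ± 0.12 (adjusted p = 0.192).

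CDKN1A, the cell cycle inhibitor p21 and the best known p53 target, did not rise in any comparison. It measured 10.16, 10.14 and 10.02 in inhibitor-treated, 10.38, 10.32 and 10.28 in MTAP-positive, and 10.51, 10.35 and 10.57 in MTAP-negative cells. The inhibitor-treated arrays lay below all others, and the untreated groups overlapped. CDKN1A fell by 0.37 ± 0.10 in inhibitor-treated against MTAP-negative cells (adjusted p = 0.0199). That call was lost with the ACTB covariate (0.0717) and without MTAP-negative array 1 (0.0589) or 3 (0.0674) or inhibitor-treated array 3 (0.0806). The differences of -0.22 ± 0.10 against MTAP-positive cells (adjusted p = 0.187) and of -0.15 ± 0.10 between MTAP-positive and MTAP-negative cells (adjusted p = 0.338) did not pass.

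TP53I3, also known as PIG3, an oxidoreductase linked to p53-driven oxidative stress, was low only on the inhibitor-treated arrays. It measured 8.74, 8.64 and 8.44 in inhibitor-treated, 9.59, 9.43 and 9.24 in MTAP-positive, and 9.67, 9.36 and 9.46 in MTAP-negative cells. The untreated groups overlapped. TP53I3 fell by 0.81 ± 0.13 in inhibitor-treated against MTAP-positive cells, 1.76-fold lower (adjusted p = 0.00737), and the alternatives gave adjusted p from 0.00381 to 0.0415. Against MTAP-negative cells it was 1.86-fold lower, a fall of 0.89 ± 0.13 (adjusted p = 0.00125), and MTAP-positive differed from MTAP-negative cells by -0.08 ± 0.13 (adjusted p = 0.732).

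FAS, the death receptor that starts the extrinsic route to apoptosis, had its highest values in MTAP-negative cells on 2 of its 3 probe sets. The FAS probe set of mean 9.16 measured 8.72, 8.96 and 8.91 in inhibitor-treated, 8.84, 9.35 and 9.06 in MTAP-positive, and 9.39, 9.59 and 9.63 in MTAP-negative cells. The MTAP-negative arrays lay above all others, and the MTAP-positive groups overlapped. It fell by 0.67 ± 0.14 in inhibitor-treated against MTAP-negative cells (adjusted p = 0.00722), in every alternative run. Between MTAP-positive and MTAP-negative cells the difference was -0.45 ± 0.14 (adjusted p = 0.0638), which passed with the replicate block (adjusted p = 0.0198), after centring (0.0440) or quantile normalization (0.0482), with array weights (0.0384) and without MTAP-positive array 2 (0.0203).
The FAS probe set of mean 8.8 measured 8.42, 8.82 and 8.49 in inhibitor-treated, 8.46, 8.86 and 8.58 in MTAP-positive, and 9.20, 9.21 and 9.13 in MTAP-negative cells, with the same order of groups. It fell by 0.60 ± 0.14 in inhibitor-treated against MTAP-negative cells (adjusted p = 0.0103), in every alternative run. The fall of 0.54 ± 0.14 in MTAP-positive against MTAP-negative cells (adjusted p = 0.0315) was lost with only those 2 groups fitted (0.0528), without MTAP-negative array 1 (0.0736), 2 (0.0847) or 3 (0.0695), without MTAP-positive array 1 (0.0908) or 3 (0.0861), and without inhibitor-treated array 3 (0.0503). Inhibitor-treated and MTAP-positive cells differed by -0.06 ± 0.14 here (adjusted p = 0.816) and by -0.22 ± 0.14 on the first probe set (adjusted p = 0.364).
The third, of mean 7.83, measured 7.50, 7.97 and 7.46 in inhibitor-treated, 7.66, 8.46 and 7.67 in MTAP-positive, and 7.96, 7.78 and 8.0 in MTAP-negative cells. All groups overlapped and no difference passed, and the sign of its difference between MTAP-positive and MTAP-negative cells, 0.02 ± 0.22, turned to -0.06 after centring and -0.08 after quantile normalization. The probe sets of FAS thus differed in which changes passed, and the difference between them was not tested. Their mean fell by 0.52 ± 0.15 in inhibitor-treated against MTAP-negative cells (adjusted p = 0.0235). It did not pass in MTAP-positive against MTAP-negative cells, at -0.33 ± 0.15 (adjusted p = 0.157). Nor did it in inhibitor-treated against MTAP-positive cells, at -0.19 ± 0.15 (adjusted p = 0.445).

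RRM2B, the p53-induced small subunit of ribonucleotide reductase that supplies deoxynucleotides for repair, fell in both MTAP-positive groups against MTAP-negative cells. It measured 9.91, 10.00 and 10.26 in inhibitor-treated, 9.55, 10.27 and 10.10 in MTAP-positive, and 10.61, 10.85 and 10.53 in MTAP-negative cells. The MTAP-negative arrays lay above all others. RRM2B fell by 0.69 ± 0.19 in MTAP-positive against MTAP-negative cells (adjusted p = 0.0390), and the call passed in 6 of 16 alternatives. It was lost without MTAP-negative array 1 (0.0735), 2 (0.117) or 3 (0.0674), MTAP-positive array 1 (0.0812) or 3 (0.0656), or inhibitor-treated array 1 (0.0550), 2 (0.0560) or 3 (0.0511), with only those 2 groups fitted (0.0787), and with the ACTB covariate (0.147). The fall of 0.61 ± 0.19 in inhibitor-treated against MTAP-negative cells (adjusted p = 0.0359) passed in 10 of 16 and was lost with the ACTB covariate (0.0838), without MTAP-negative array 1 (0.0699), 2 (0.114) or 3 (0.0521), and without inhibitor-treated array 1 (0.111) or 2 (0.0955). Inhibitor-treated and MTAP-positive cells differed by 0.08 ± 0.19 (adjusted p = 0.821).

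RRM2, the S-phase counterpart of RRM2B, showed another pattern. It measured 10.82, 11.06 and 10.41 in inhibitor-treated, 11.86, 11.98 and 11.51 in MTAP-positive, and 12.18, 12.28 and 12.38 in MTAP-negative cells. RRM2 fell by 1.02 ± 0.18 in inhibitor-treated against MTAP-positive cells (adjusted p = 0.00947), where RRM2B did not pass the test. The difference between these 2 changes was not tested.

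XPC, which recognises damage in nucleotide excision repair, had small differences. It measured 9.59, 9.48 and 9.35 in inhibitor-treated, 9.70, 9.59 and 9.62 in MTAP-positive, and 9.74, 9.72 and 9.90 in MTAP-negative cells. It fell by 0.32 ± 0.10 in inhibitor-treated against MTAP-negative cells (adjusted p = 0.0450), a call that passed in 6 of 16 alternatives, with adjusted p up to 0.161. It was lost without MTAP-negative array 1 (0.0768), MTAP-negative array 2 (0.0607), MTAP-negative array 3 (0.137), MTAP-positive array 1 (0.0507), MTAP-positive array 3 (0.0617), inhibitor-treated array 1 (0.0521), inhibitor-treated array 2 (0.104) or inhibitor-treated array 3 (0.161). It was also lost with only 2 groups fitted (0.0569) and with the ACTB covariate (0.161). The differences of -0.17 ± 0.10 between inhibitor-treated and MTAP-positive cells (adjusted p = 0.345) and of -0.15 ± 0.10 between MTAP-positive and MTAP-negative cells (adjusted p = 0.354) did not pass.

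ZMAT3, an RNA-binding zinc finger protein induced by p53, passed the test in no comparison. It measured 9.86, 10.53 and 10.31 in inhibitor-treated, 9.23, 9.95 and 9.80 in MTAP-positive, and 9.85, 9.70 and 9.85 in MTAP-negative cells. The inhibitor-treated arrays lay just above the MTAP-negative ones and overlapped with the MTAP-positive ones. The differences were 0.57 ± 0.21 against MTAP-positive cells (adjusted p = 0.115) and 0.43 ± 0.21 against MTAP-negative cells (adjusted p = 0.151), and MTAP-positive minus MTAP-negative cells gave -0.14 ± 0.21 (adjusted p = 0.687).

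GDF15, a secreted stress cytokine raised by p53 and by the integrated stress response, was the only member called higher. It measured 12.84, 12.88 and 12.90 in inhibitor-treated, 12.25, 12.03 and 12.36 in MTAP-positive, and 12.24, 11.93 and 11.79 in MTAP-negative cells. The inhibitor-treated arrays lay above all others and the untreated groups overlapped. GDF15 rose by 0.88 ± 0.14 in inhibitor-treated against MTAP-negative cells, 1.85-fold (adjusted p = 0.00147), in every alternative run. The rise of 0.66 ± 0.14 against MTAP-positive cells, 1.58-fold (adjusted p = 0.0178), was lost without inhibitor-treated array 1 (0.0528), 2 (0.0552) or 3 (0.0795). MTAP-positive minus MTAP-negative cells gave 0.23 ± 0.14 (adjusted p = 0.289).

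Genes of the wider pathway are given by lists chosen by role, each gene by its probe set of highest mean. Over all 51 other p53 targets with values, 2 rose and 2 fell in inhibitor-treated against MTAP-positive cells, 7.84% called, beside 10.6% of all 9453 genes. In MTAP-positive against MTAP-negative cells 6 rose and 2 fell, 15.7% called beside 15.1% of all genes, and in inhibitor-treated against MTAP-negative cells 13 rose and 7 fell, 39.2% called beside 32.2%. These shares lay near those of all genes, and the list medians were -0.06, 0.06 and 0.02. The count of 8 became 2 with the ACTB covariate, 15 with array weights and 13 with 1 value per gene. The count of 4 became 1 without MTAP-positive array 1 or inhibitor-treated array 3 and 2 without inhibitor-treated array 2, and the count of 20 became 13 without MTAP-negative array 3 or inhibitor-treated array 1.

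Genes listed for cell cycle arrest were called in both directions. Of 9 tested, 2 rose and 1 fell in inhibitor-treated against MTAP-positive cells, beside 4.63% of all genes called higher and 5.95% lower. Against MTAP-negative cells 4 rose and 2 fell, beside 17.3% and 14.9%. In MTAP-positive against MTAP-negative cells 1 rose and 0 fell, beside 9.84% and 5.31%. SERTAD1, a regulator of cyclin D and CDK4, fell by 1.16 ± 0.18 in inhibitor-treated against MTAP-negative cells (adjusted p = 0.00136). PLK2, a stress-induced kinase, rose by 0.79 ± 0.12 in the same comparison (adjusted p = 0.00113), and CCNG1, a cyclin that p53 induces, by 0.66 (adjusted p = 0.00654). CCNG1 measured 12.47, 12.66 and 12.79 in inhibitor-treated, 11.80, 12.15 and 12.24 in MTAP-positive, and 11.91, 11.97 and 12.08 in MTAP-negative cells. CDKN1B, the inhibitor p27 and not a classical p53 target, rose by 0.93 ± 0.10 in MTAP-positive against MTAP-negative cells (adjusted p = 0.000756). Without CDKN1B the counts of the other p53 targets were 5 rises in that comparison and 12 in inhibitor-treated against MTAP-negative cells, of 50 genes. In inhibitor-treated against MTAP-positive cells, CCNG1 rose by 0.58 ± 0.14 (adjusted p = 0.0299), lost in 4 of 16 alternatives. PLK2 rose there by 0.48 ± 0.12 (adjusted p = 0.0307), lost in 6 of 16. SERTAD1 fell there by 0.85 ± 0.18 (adjusted p = 0.0173), lost in 2 of 16. GADD45A differed by 0.30 ± 0.11 between inhibitor-treated and MTAP-positive cells (adjusted p = 0.112).

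Of 8 death genes tested, 0 were called by limma in inhibitor-treated against MTAP-positive cells, beside 10.6% of all genes. With so few genes, that count says little about them, and 1 had an unadjusted p below 0.05 in limma. The receptor gene TNFRSF10B differed by -0.07 ± 0.11 (adjusted p = 0.756) and PERP by -0.03 ± 0.10 (adjusted p = 0.898). Against MTAP-negative cells 2 of 8 fell, beside 32.2% of all genes called and 14.9% called lower. TRIAP1, which restrains apoptosis, fell by 0.75 ± 0.12 (adjusted p = 0.00150) and AEN, a nuclease of apoptosis, fell by 0.48 ± 0.11 (adjusted p = 0.00853). TRIAP1 was already lower in MTAP-positive against MTAP-negative cells, by 0.51 ± 0.12 (adjusted p = 0.0186), a call lost in 4 of 16 alternatives. Between inhibitor-treated and MTAP-positive cells it differed by -0.23 ± 0.12 (adjusted p = 0.231). TIGAR, which lowers glycolytic flux, fell by 0.78 ± 0.12 in inhibitor-treated against MTAP-negative cells (adjusted p = 0.00160). It measured 9.19, 9.42 and 9.36 in inhibitor-treated, 9.44, 9.74 and 9.46 in MTAP-positive, and 9.98, 10.23 and 10.10 in MTAP-negative cells, the MTAP-negative arrays above all others.

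Among 8 repair genes, 1 fell in inhibitor-treated against MTAP-positive cells, a share near the 10.6% of all genes called. This was PCNA, the sliding clamp of DNA replication, which fell by 0.70 ± 0.10 (adjusted p = 0.00502). DDB2, a damage sensor, differed by 0.16 ± 0.12 (adjusted p = 0.441). Of 17 targets with other roles, 5 rose and 0 fell in MTAP-positive against MTAP-negative cells, beside 9.84% of all genes called higher and 5.31% lower, among them LIF, a cytokine, by 0.92 ± 0.09 (adjusted p = 0.000425). With the ACTB covariate 1 of these 17 was called.

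Among 16 regulators of p53, 3 rose and 0 fell in MTAP-positive against MTAP-negative cells, beside 9.84% of all genes called higher and 5.31% lower. The count of 3 became 1 with the ACTB covariate or without MTAP-negative array 2 or 3. In inhibitor-treated cells 1 rose and 1 fell against MTAP-positive cells, and 3 rose and 1 fell against MTAP-negative cells. CHEK1 fell by 0.60 ± 0.12 against MTAP-positive cells (adjusted p = 0.0155), a call lost in 2 of 16 alternatives. ATM rose by 0.86 ± 0.24 against MTAP-negative cells (adjusted p = 0.0229), lost in 5 of 16. HIPK2, a kinase that phosphorylates p53, rose by 0.65 ± 0.10 in MTAP-positive against MTAP-negative cells (adjusted p = 0.00379). It differed by -0.02 between inhibitor-treated and MTAP-positive cells (adjusted p = 0.920).

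Cell cycle genes known to be lowered through p21 and DREAM were called lower more often than higher in inhibitor-treated cells. Of 16 tested, 10 fell, 0 rose and 6 did not pass against MTAP-positive cells, beside 5.95% of all genes called lower, with a median log2 change of -0.68. Against MTAP-negative cells 13 fell and 0 rose, beside 14.9% of all genes, and in MTAP-positive against MTAP-negative cells 1 fell, beside 5.31%. Without inhibitor-treated array 3 the count of 10 became 3. The part of CDKN1A in these changes was not tested. MYBL2, a transcription factor of the S phase, fell by 0.99 ± 0.13 against MTAP-positive cells (adjusted p = 0.00305) and CCNB1, the mitotic cyclin B1, by 0.84 ± 0.15 (adjusted p = 0.0101). MYBL2 measured 7.93, 7.90 and 7.68 in inhibitor-treated, 8.88, 8.97 and 8.64 in MTAP-positive, and 9.07, 8.87 and 8.80 in MTAP-negative cells. KIF23, a kinesin of cytokinesis, fell by 1.09 ± 0.21 (adjusted p = 0.0130, and 0.0653 without inhibitor-treated array 3). TOP2A differed by -0.53 ± 0.25 (adjusted p = 0.214) and CKS1B by -0.21 ± 0.13 (adjusted p = 0.339).

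Genes of the ATF4 stress response, known as a route to GDF15 that does not need p53, were also followed. Of 12 genes tested, 7 rose, 0 fell and 5 did not pass in inhibitor-treated against MTAP-positive cells, beside 4.63% of all genes called higher, with a median log2 change of 0.63. Against MTAP-negative cells 10 rose, beside 17.3%, and between MTAP-positive and MTAP-negative cells 3 rose, beside 9.84%. ASNS, asparagine synthetase, measured 11.64, 11.60 and 11.75 in inhibitor-treated, 10.52, 10.24 and 10.20 in MTAP-positive, and 10.69, 10.39 and 10.70 in MTAP-negative cells, and rose by 1.35 ± 0.13 against MTAP-positive cells (adjusted p = 0.00187). DDIT4, an inhibitor of mTORC1, measured 10.37, 10.49 and 10.43 in inhibitor-treated, 9.60, 9.40 and 9.47 in MTAP-positive, and 8.39, 7.99 and 7.92 in MTAP-negative cells, and rose by 0.94 ± 0.13 (adjusted p = 0.00423). TRIB3, a pseudokinase, rose by 0.75 ± 0.10 (adjusted p = 0.00402) and DDIT3, the transcription factor CHOP, by 0.85 ± 0.15 (adjusted p = 0.00884). ATF4 itself differed by 0.52 ± 0.16 (adjusted p = 0.0732, and 0.0217 with the replicate block) and CEBPB by 0.48 ± 0.13 (adjusted p = 0.0506, and 0.0261 with the replicate block). The part of this response in the rise of GDF15 was not tested.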

How the data were processed

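Total RNA of 9 HT1080 cultures was hybridised to 1-colour Affymetrix arrays. The deposited values are log2 RMA values of the authors, per the submitters' processing notes; RMA corrects background, normalizes by quantiles and summarises probes. Its version and any genome build: not given in the sources used here. Of 54675 probe sets listed, 37201 had no values, and every one with values reached 6.64 on at least 3 arrays, so dim probe sets had been left out. Detection calls were not used here.

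A linear model with 3 groups was fitted in limma 3.58.1 (R 4.3.3, lmFit and eBayes) to all 17466 non-control probe sets with values. p-values were adjusted by Benjamini-Hochberg within a comparison, with 0.05 as the threshold. Changes are log2 differences ± SE, with a median SE of 0.14 that the 3 arrays per group limit. Gene names come from the platform annotation (15485 probe sets with 1 symbol, 841 with several, 1140 with none). The fit was tested on simulated data.

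Named genes are all members, MTAP and, per list and comparison, up to 4 called members with the largest change and up to 2 uncalled ones with the highest mean. Members and lists were chosen with earlier results of these data known. Same-numbered arrays deviated together (correlation 0.32 to 0.7 for inhibitor-treated with MTAP-positive, 0.22 to 0.28 for MTAP-positive with MTAP-negative). The replicate number thus appears to pair arrays in these comparisons. The main fit did not use this pairing, so the SE and adjusted p given with the results leave it out. Alternatives were the replicate block, fitting 2 groups, centring, quantile normalization, a filter at the 40th percentile, the ACTB covariate, array weights, 1 value per gene and leaving out each array.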

Additional observations from a re-analysis of the deposited data

How the results depend on the processing

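No member or named gene whose difference was called changed sign in any alternative run, and limits lay in which calls passed. The probe sets called in MTAP-positive against MTAP-negative cells, 2586, became 1385 with only 2 groups fitted and 851 with the ACTB covariate, and 1458 to 2809 with 1 array left out, the lowest without MTAP-negative array 3 (1630 without array 2). The 4 members called there became 2 with 2 groups fitted, 2 with the ACTB covariate, 2 (of 8 genes) with 1 value per gene, and 2 to 5 with 1 array left out. The 17 listed genes became 5 with the ACTB covariate and 11 to 19 with 1 array left out. In inhibitor-treated against MTAP-positive cells the 1805 probe sets became 452 to 1836 with 1 array left out, the lowest without inhibitor-treated array 3, and 895, 909 and 914 without MTAP-positive array 1 and inhibitor-treated arrays 1 and 2. The 3 members ranged from 2 to 3 and the 25 listed genes from 10 to 25. In inhibitor-treated against MTAP-negative cells the 5361 probe sets became 3282 (of 9453 genes) with 1 value per gene and 3562 to 6032 with 1 array left out, the 11 members 7 (of 8 genes) and 7 to 11, and the 51 listed genes 40 to 54. With the replicate block, which the main fit left out, the 2586 probe sets became 3779, the 1805 became 2726 and the 5361 became 6500. There 5, 3 and 11 members were called in MTAP-positive against MTAP-negative, inhibitor-treated against MTAP-positive and inhibitor-treated against MTAP-negative cells. Beside the calls given with the results, the block added RAD23B in MTAP-positive against MTAP-negative cells (adjusted p = 0.0474), and PLK1 (0.0145) and SLC7A11 (0.0414) in inhibitor-treated against MTAP-negative cells. Same-numbered arrays of inhibitor-treated and MTAP-negative cells correlated at -0.01 to 0.2, which does not settle whether they are paired. Called probe sets that were higher in MTAP-positive against MTAP-negative cells made up 67.7%, against 50.1% after centring and 50.3% after quantile normalization. Over single genes, 2414 results kept their side of the threshold, 152 lost a call and 27 gained one. Signal over background is unknown here. Values below 6.64 stand in the deposited table, so the bounds given for the MDM2 probe set of mean 7.47 are a cautious reading and not a measured limit.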

Other observations

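The genes whose values most resembled those of 2 members across the 9 arrays are given as a description, since the arrays share groups. CDKN1A was most like TUBA1B (Pearson r = 0.991), TUBA1C (0.986) and TYMS (0.986), the tubulin genes and thymidylate synthase. The brightest MDM2 probe set was most like VAPA (0.971), SLC25A16 (0.967) and RP2 (0.965).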
